A study of Mus musculus with 9 samples.

Results

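The genes described here are the cyclins, kinases and inhibitors that act on the step from G1 into S phase: the D-type cyclins Ccnd1, Ccnd2 and Ccnd3, the E-type cyclins Ccne1 and Ccne2, the kinases Cdk4 and Cdk6, and the inhibitors Cdkn2a, Cdkn2b and Cdkn1b. These 10 genes were taken by their platform symbols, with every probe set that carries one of them, which gave 26 probe sets of the 45101 on the array. All 10 genes had at least 1 probe set, and Ccnd2 had the most, with 7. They were measured in 9 mouse oral tumors, each hybridised to 1 Affymetrix expression array, in a series on tumors induced by activation of Ras together with changes in p53.

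There were 3 groups of 3 tumors, all from mice labelled as 1 year old. By their labels the p53R172H/- tumors had the missense allele p53R172H and a null allele, those labelled p53R172H/+ had the missense and a wild-type allele, and the p53-/- tumors had no p53. Whether a p53R172H/+ tumor still had its wild-type allele was not analysed here. The source labels put the prefix K- before each genotype and do not explain it, and the sources used here do not name the promoter or cell type in which the alleles were switched. All 3 groups shared the activation of Ras, so no group without it is compared below. The labels do not state whether each tumor is from its own animal, and all p-values below rest on the tumor-to-tumor spread alone.

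A cell that commits to division first makes D-type cyclins, which bind Cdk4 or Cdk6. These kinases phosphorylate the RB proteins, E2F factors are released, and their targets include the E-type cyclins, which carry the cell into S phase. The inhibitors act against this step: p16Ink4a and p15Ink4b, the products of Cdkn2a and Cdkn2b, bind Cdk4 and Cdk6, and p27Kip1, the product of Cdkn1b, acts mainly on cyclin E complexes. Cdkn2a also encodes p19Arf, which holds back Mdm2 and so stabilises p53. The Cdkn2 genes are induced by activated Ras in cultured mouse cells and mark senescence there.

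RefSeq start sites were matched for 7 of the 10 genes, with 9 promoters in all (build GRCm38.p6). Ccnd1, Ccnd2 and Ccne2 were not matched. Those of Cdkn2a are shown because 1 gene has separate starts for its separate products, that of Cdkn2b because it is the neighbouring inhibitor, and those of Ccne1 and Cdk4 because the results below return to these genes. Each line is the 250 bases before a start, read 5′ to 3′ on the gene's own strand. Capitals mark matches, on either strand, to TGACGTCA (the cAMP response element), CACGTG (an E-box), GGGCGG (a GC box) or TTTNNCGC (an E2F-type motif).
Cdkn2a upstream start, chr4:89294620-89294869, minus strand: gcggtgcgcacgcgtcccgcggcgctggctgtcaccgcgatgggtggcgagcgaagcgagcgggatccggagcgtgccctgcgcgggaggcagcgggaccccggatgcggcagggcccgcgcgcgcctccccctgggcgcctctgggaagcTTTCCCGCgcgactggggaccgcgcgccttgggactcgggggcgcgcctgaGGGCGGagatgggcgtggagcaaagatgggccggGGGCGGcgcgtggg
Cdkn2a downstream start, chr4:89282193-89282442, minus strand: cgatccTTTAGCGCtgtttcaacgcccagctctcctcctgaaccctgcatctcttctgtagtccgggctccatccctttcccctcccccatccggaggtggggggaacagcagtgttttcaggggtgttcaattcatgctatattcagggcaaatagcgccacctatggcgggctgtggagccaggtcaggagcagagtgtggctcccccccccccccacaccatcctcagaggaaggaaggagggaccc
Cdkn2b, chr4:89311033-89311282, minus strand: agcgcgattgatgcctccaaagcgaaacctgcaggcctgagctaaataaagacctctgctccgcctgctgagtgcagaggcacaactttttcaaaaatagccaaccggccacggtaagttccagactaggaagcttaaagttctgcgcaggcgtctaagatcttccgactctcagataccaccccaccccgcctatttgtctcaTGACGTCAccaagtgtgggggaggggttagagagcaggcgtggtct
Ccne1, chr7:38107491-38107740, minus strand: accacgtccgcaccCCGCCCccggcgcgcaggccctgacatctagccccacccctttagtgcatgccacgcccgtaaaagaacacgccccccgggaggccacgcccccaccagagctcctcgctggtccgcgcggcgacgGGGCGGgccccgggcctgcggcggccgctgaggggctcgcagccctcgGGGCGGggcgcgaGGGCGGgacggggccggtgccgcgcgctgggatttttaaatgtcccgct
Cdk4, chr10:127063285-127063534, plus strand: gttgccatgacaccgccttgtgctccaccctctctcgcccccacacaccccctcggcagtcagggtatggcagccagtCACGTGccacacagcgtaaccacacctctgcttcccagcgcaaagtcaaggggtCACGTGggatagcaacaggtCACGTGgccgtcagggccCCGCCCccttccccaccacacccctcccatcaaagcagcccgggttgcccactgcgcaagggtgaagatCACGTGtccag

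In the mouse, the upstream start of Cdkn2a is that of the p19Arf transcript and the downstream one that of p16Ink4a. Both Cdkn2a promoters held 1 match to the E2F-type motif, at 99 to 92 bases before the upstream start and at 244 to 237 bases before the downstream start. That motif was present in 4.28% of 32851 mouse promoters of the same length. The Cdkn2b promoter held the only match to TGACGTCA among the 9 promoters, at 46 to 39 bases before its start, against 1.55% of all promoters. Ccne1 had 4 GC boxes, a motif found in 32.7% of all promoters, and Cdk4 had 4 E-boxes, a motif found in 6.02%. CACGTG reads the same on both strands, and the palindromic TGACGTCA does too, so each such match was counted once. These matches are descriptions of the letters in these windows.

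Median signals of the arrays lay between 109.15 and 123.09, and Pearson's r of log2 signals across probe sets was 0.932 to 0.980 within groups and 0.932 to 0.981 between groups. Krt5 and Krt14, keratins of basal squamous epithelium, had signals of 10434 to 13213 and 19908 to 22692 in the 9 tumors, so squamous epithelium was measured on every array. Its list of 14 tested squamous markers ranged from a mean log2 signal of 12.85 to 13.26. Skeletal muscle markers differed far more between tumors, with a mean log2 signal over 18 genes of 6.69 to 10.45 in the p53R172H/- tumors, 6.51 to 8.38 in the p53R172H/+ tumors and 7.74 to 8.31 in the p53-/- tumors. Hair keratins and other hair follicle genes (16 tested) spanned 7.66 to 10.83, 7.26 to 9.50 and 8.52 to 9.63 in the same order of groups. Fewer cells of a type and less RNA per cell cannot be told apart in these bulk samples.

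Signals were tested with limma on log2 values, with 1 mean per group over all 9 arrays, two-sided p-values and Benjamini-Hochberg adjustment over all 12167 genes tested, each by its brightest probe set. A second fit covered all 34945 probe sets with 1 gene symbol. Of the 10 genes, 9 were in the gene fit. Cdkn2a was too dim for it and has values from the fit over probe sets. Signals of different probe sets are on scales of their own, so levels are compared between tumors and never between genes.

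Adjusted p-values stayed above 0.05 for all 12167 genes, so 0 (0%) were called in each of the 4 comparisons, and likewise 0 (0%) of the probe sets. By limma there were 1897, 1259, 603 and 1938 genes under an unadjusted p of 0.05 for p53R172H/- against p53-/-, p53R172H/+ against p53-/-, p53R172H/- against p53R172H/+ and both mutant groups against p53-/-. Accordingly 0 of the 9 G1 genes passed in any of them, and the differences below are described by their values. The smallest adjusted p of any G1 gene was 0.263, for Ccnd2 in p53R172H/- against p53-/-. The first and second comparisons share the p53-/- tumors, as does the fourth.

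**Figure D1:**
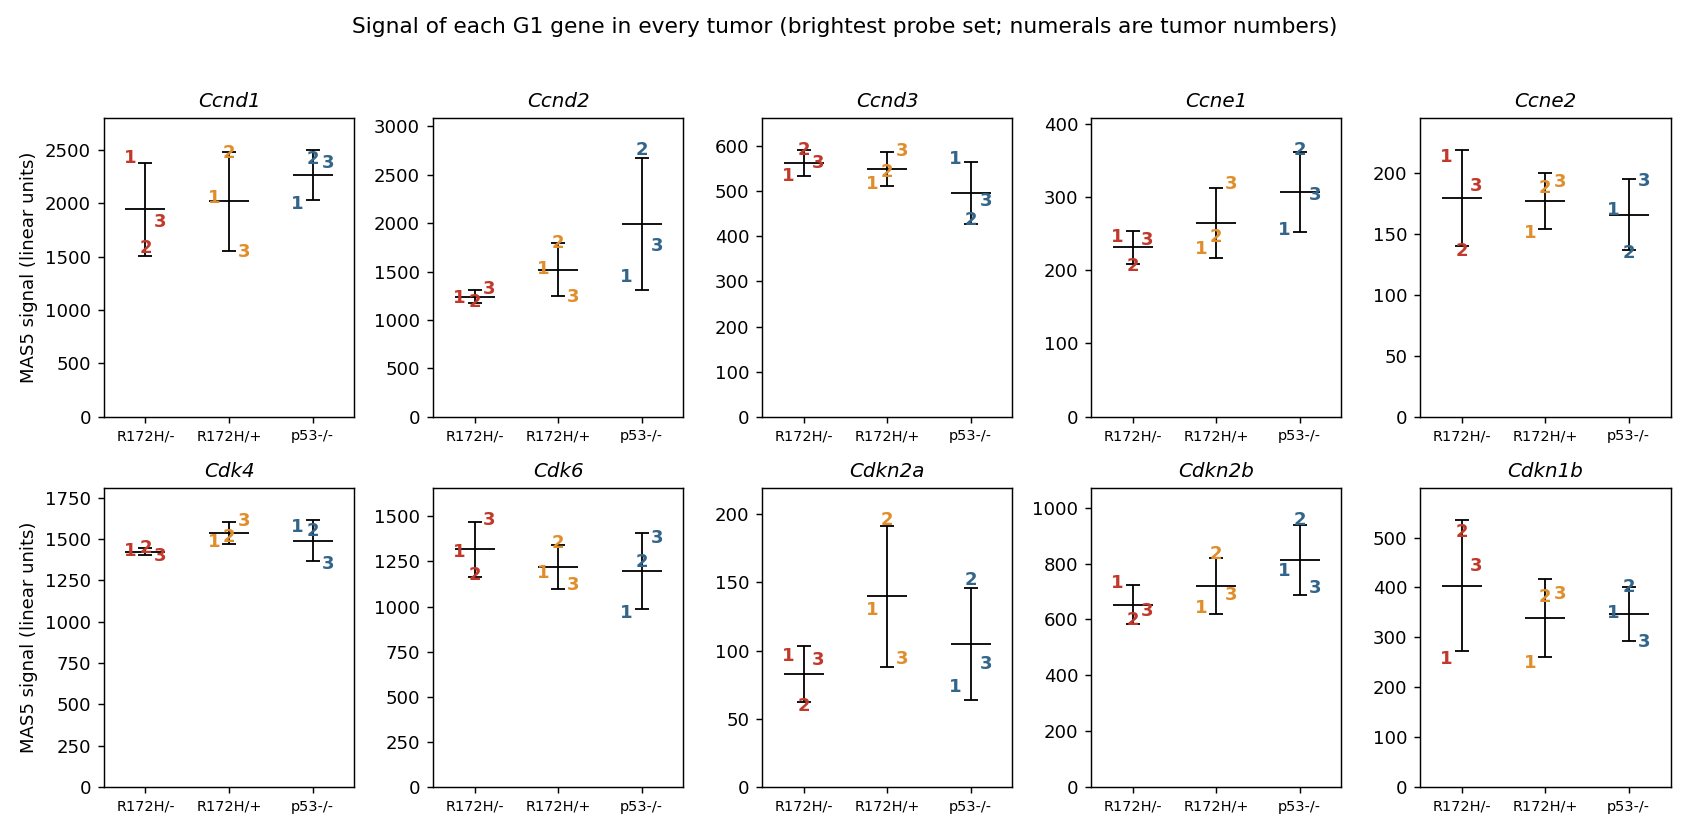
MAS5 signal (vertical axis, linear units from 0) of the brightest probe set of each of the 10 genes, with a numeral for each tumor and the group mean and SD (n = 3) as bars, for p53R172H/-, p53R172H/+ and p53-/- tumors from left to right. The 3 p53R172H/- tumors lie below the 3 p53-/- tumors for Ccnd2 (1182 to 1319 against 1449 to 2755) and Ccne1 (206 to 246 against 255 to 364). Of all genes tested, 13.8% were apart in this way. The groups overlap for the other 8 genes in that comparison.

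Among the D-type cyclins, Ccnd2 differed most between genotypes. Cyclin D2 is encoded by a known Myc target gene. By its brightest probe set (1416122_at) it had 1224, 1182 and 1319 signal units in the p53R172H/- tumors, 1522, 1798 and 1243 in the p53R172H/+ tumors, and 1449, 2755 and 1762 in the p53-/- tumors. The p53R172H/- tumors were close together and all below the p53-/- tumors, as for 13.8% of all genes tested. The p53R172H/+ tumors lay across the gap between these 2 groups. Group means were 1242 ± 70.0, 1521 ± 277 and 1988 ± 682 (SD, n = 3 each), the p53-/- group having the widest spread because of its tumor 2.

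The log2 fold change of Ccnd2 was -0.63 ± 0.22 (SE) in p53R172H/- against p53-/-, or 1.54-fold lower, with a limma adjusted p of 0.263 and an unadjusted p of 0.0182. It was -0.35 ± 0.22 in p53R172H/+ against p53-/- (adjusted p 0.575) and -0.28 ± 0.22 in p53R172H/- against p53R172H/+ (adjusted p 0.949). With both mutant groups against p53-/- it was -0.49 ± 0.19 (adjusted p 0.283). The order of the groups was therefore p53-/- above p53R172H/+ above p53R172H/-, and neither step between neighbours passed the test. Much of the size came with p53-/- tumor 2: without it the difference between p53R172H/- and p53-/- was -0.37 on the log2 scale (adjusted p 0.510), and that between p53R172H/+ and p53-/- was -0.09.

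Most of the 7 Ccnd2 probe sets pointed the same way. In p53R172H/- against p53-/-, 6 of 7 had a lower mean, and 3 had an unadjusted p under 0.05 (lower in 6.91% of all 34945 probe sets) and groups that did not overlap (lower in 10.5%). The probe sets read 1 transcript in the same tumors and are not independent measurements. Probe set 1434745_at had 1038, 959 and 1220 signal units in the p53R172H/- tumors, 1256, 1603 and 1179 in the p53R172H/+ tumors, and 1355, 2962 and 1867 in the p53-/- tumors. Its log2 fold change was -0.87 ± 0.28 in p53R172H/- against p53-/- (adjusted p 0.356 over probe sets).

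Probe set 1455956_x_at gave the clearest separation, with 943, 899 and 1132 signal units in the p53R172H/- tumors, 1198, 1391 and 1011 in the p53R172H/+ tumors, and 1394, 2493 and 1582 in the p53-/- tumors. All 6 mutant tumors were below all 3 p53-/- tumors, as for 3.25% of probe sets. The highest mutant tumor, at 1391, was within 3 signal units of the lowest p53-/- tumor, at 1394. Its log2 fold changes were -0.84 ± 0.23 (adjusted p 0.330) in p53R172H/- and -0.57 ± 0.23 (adjusted p 0.531) in p53R172H/+, each against p53-/-. The suffix _x_at marks a probe set some of whose probes may also match other transcripts.

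The remaining Ccnd2 probe sets were dimmer and overlapped between groups. Probe set 1416124_at, the dimmest, went the other way, with 140, 98.7 and 106 signal units in the p53R172H/- tumors against 83.5, 88.2 and 114 in the p53-/- tumors and a log2 fold change of 0.27 ± 0.23. Across the 7, log2 fold changes ran from -0.87 to 0.27 in p53R172H/- against p53-/- and from -0.57 to 0.22 in p53R172H/+ against p53-/-. Leaving out p53-/- tumor 2, the 3 leading probe sets had -0.37, -0.58 and -0.59 in p53R172H/- against p53-/-. The 2 of them not used in the gene fit thus kept differences of more than 0.5 on the log2 scale. The dimmer ones had -0.25 (1430127_a_at), -0.23 (1448229_s_at), -0.12 (1416123_at) and 0.22 (1416124_at).

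**Figure D2:**
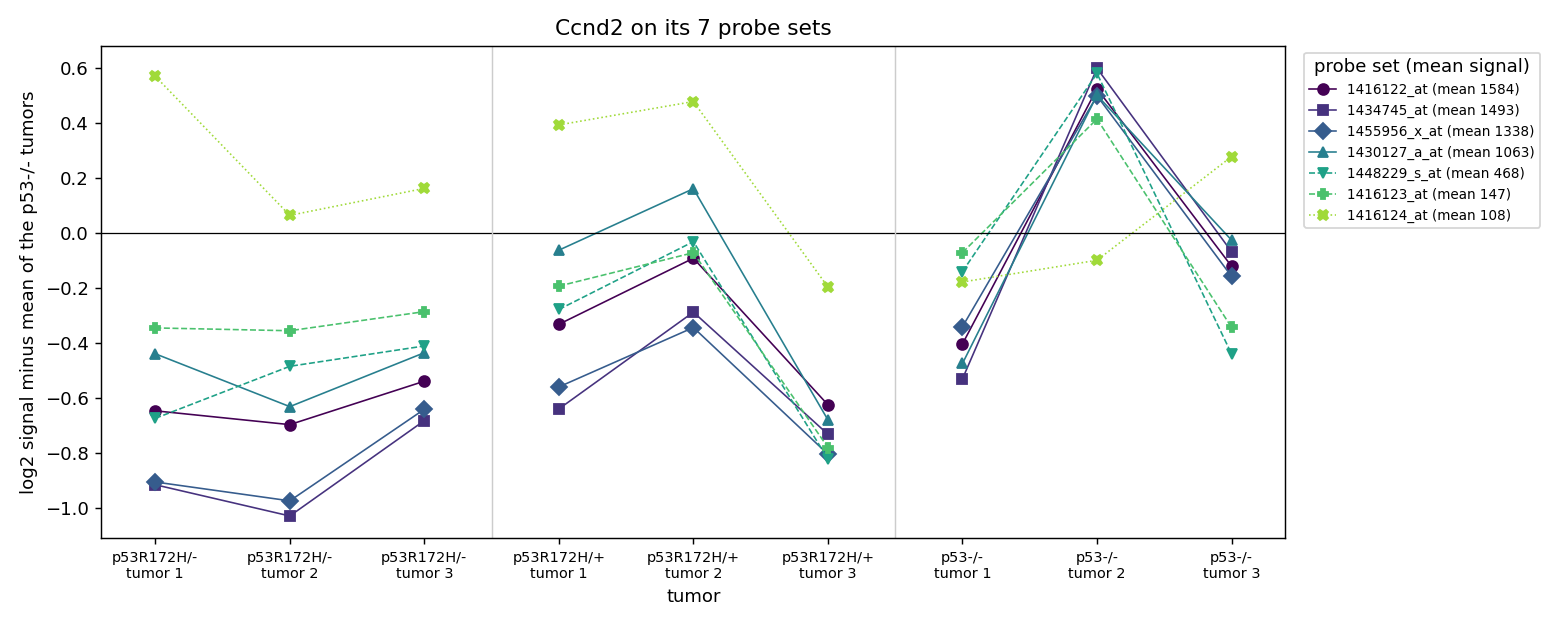
Log2 signal of the 7 Ccnd2 probe sets in each tumor as the difference from the mean of the p53-/- tumors (vertical axis), with p53R172H/- tumors at the left, p53R172H/+ tumors in the middle and p53-/- tumors at the right, and lines joining the values of 1 probe set within a group. The 6 brighter probe sets peak together in tumor 2 of the p53-/- group (2755, 2962 and 2493 signal units for the first 3), and the dimmest does not.

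Markers of connective tissue moved with Ccnd2 in part. Fibroblast and matrix genes had a mean log2 signal over 17 genes of 10.24 to 10.77 in the p53R172H/- tumors, 10.93 to 11.18 in the p53R172H/+ tumors and 10.52 to 11.30 in the p53-/- tumors. Of these genes, 12 of 17 were lower in p53R172H/- than in p53-/- tumors at an unadjusted p under 0.05 (9.16% of all genes), among them the collagens Col6a2 (-0.88 ± 0.19) and Col1a2 (-0.75 ± 0.18 on the log2 scale). The p53-/- tumor with the most Ccnd2, tumor 2, was the lowest of its group in this list, at 10.52. The part of connective tissue in the Ccnd2 difference was not tested.

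Ccnd1, the D-type cyclin often amplified in human squamous cancers, had 2430, 1582 and 1826 signal units in the p53R172H/- tumors, 2048, 2471 and 1546 in the p53R172H/+ tumors, and 1996, 2418 and 2383 in the p53-/- tumors (1448698_at). Each mutant group held tumors above and below the lowest p53-/- tumor. The log2 fold changes were -0.24 ± 0.20 in p53R172H/- and -0.19 ± 0.20 in p53R172H/+, each against p53-/- (adjusted p 0.552 and 0.732). Its 3 probe sets ran from -0.46 to -0.09 in the first of these comparisons and from -0.32 to 0.01 in the second. By the brightest probe set, single tumors left out took the first from -0.41 to -0.10 (without p53R172H/- tumors 1 and 2) and the second from -0.34 to -0.00 (without p53R172H/+ tumors 2 and 3).

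Ccnd3 stood opposite to Ccnd2 in sign. This cyclin had 535, 591 and 563 signal units in the p53R172H/- tumors, 515, 544 and 589 in the p53R172H/+ tumors, and 571, 436 and 480 in the p53-/- tumors (1415907_at). Only tumor 1 of the p53-/- group reached the level of the mutant tumors. The log2 fold changes were 0.19 ± 0.11 (adjusted p 0.429) in p53R172H/- and 0.16 ± 0.11 (adjusted p 0.620) in p53R172H/+, each against p53-/-, and 0.17 ± 0.10 for both mutant groups together. The tumor lowest of all 9 in Ccnd3, p53-/- tumor 2, was the highest in Ccnd2. Without it the Ccnd3 differences were 0.10 and 0.07, and without p53-/- tumor 1 they were 0.30 and 0.26. The other Ccnd3 probe sets were dim and split in direction, from -0.10 to 0.19 across the 3 in p53R172H/- against p53-/-.

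Of the E-type cyclins, which activate Cdk2 late in G1, Ccne1 was lower on average in the p53R172H/- tumors by 1 of its 2 probe sets. Probe set 1441910_x_at had 246, 206 and 242 signal units in the p53R172H/- tumors, 229, 245 and 318 in the p53R172H/+ tumors, and 255, 364 and 302 in the p53-/- tumors. All 3 p53R172H/- tumors were below all 3 p53-/- tumors (as for 13.8% of all genes tested), with 246 and 255 as the nearest values. The log2 fold change was -0.40 ± 0.17 (1.32-fold lower, adjusted p 0.302, unadjusted p 0.0390) in p53R172H/- and -0.22 ± 0.17 (adjusted p 0.636) in p53R172H/+, each against p53-/-.

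The other Ccne1 probe set, 1416492_at, did not show this. It had 236, 205 and 218 signal units in the p53R172H/- tumors, 206, 203 and 210 in the p53R172H/+ tumors, and 226, 216 and 218 in the p53-/- tumors, which is a log2 fold change of -0.00 ± 0.06 in p53R172H/- against p53-/-. Here the p53R172H/+ tumors were the low group and lay below all p53-/- tumors (as for 6.97% of probe sets), with a log2 fold change of -0.09 ± 0.06. The probe set with the difference is again one whose suffix marks possible matches to other transcripts, and which of the 2 reads cyclin E1 better was not tested. Averaged over both probe sets, Ccne1 had a log2 fold change of -0.20 in p53R172H/- against p53-/- (unadjusted p 0.0855).

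Ccne2, the second E-type cyclin, had 213, 136 and 189 signal units in the p53R172H/- tumors, 151, 188 and 193 in the p53R172H/+ tumors, and 170, 135 and 193 in the p53-/- tumors (1422535_at). The groups covered the same range. Its log2 fold changes were 0.10 ± 0.20 in each mutant group against p53-/-.

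Of the kinases, Cdk4 varied least. It had 1429, 1444 and 1401 signal units in the p53R172H/- tumors, 1483, 1516 and 1610 in the p53R172H/+ tumors, and 1575, 1549 and 1350 in the p53-/- tumors (1422441_x_at), the narrowest range of the 9 genes in the gene fit, at 0.25 on the log2 scale. The p53R172H/- tumors were all below the p53R172H/+ tumors, with a log2 fold change of -0.11 ± 0.08 (adjusted p 0.949). The same held for probe set 1422440_at, with 737, 642 and 690 against 797, 769 and 767 signal units and a log2 fold change of -0.17 ± 0.09. In this comparison 6.62% of all genes tested and 4.68% of all probe sets were apart in that direction. The remaining Cdk4 probe set, 1422439_a_at, overlapped between these groups, with 1053, 991 and 957 against 999, 1068 and 1149 signal units. Its log2 fold change was -0.10 ± 0.07. The brightest, 1422441_x_at, has the suffix that marks possible matches to other transcripts. Against p53-/- the Cdk4 difference was -0.06 ± 0.08 in p53R172H/- and 0.05 ± 0.08 in p53R172H/+.

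Cdk6, the other partner of the D-type cyclins, had 1303, 1173 and 1478 signal units in the p53R172H/- tumors, 1184, 1354 and 1120 in the p53R172H/+ tumors, and 963, 1249 and 1377 in the p53-/- tumors (1455287_at). The groups overlapped throughout, and log2 fold changes against p53-/- were 0.15 ± 0.15 in p53R172H/- and 0.04 ± 0.15 in p53R172H/+. All 3 of its probe sets had a higher mean in each mutant group than in the p53-/- group, from 0.08 to 0.22 in the p53R172H/- tumors and from 0.03 to 0.31 in the p53R172H/+ tumors.

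Cdkn2a, the gene of p16Ink4a and p19Arf, was dim in these arrays. Its only probe set (1450140_a_at) had 96.1, 59.2 and 93.0 signal units in the p53R172H/- tumors, 130, 196 and 93.9 in the p53R172H/+ tumors, and 73.6, 152 and 90.1 in the p53-/- tumors. The floor set on all values was 52.6 and the filter on dim genes was at 113, so most of these values were near the low end of the scale. The p53R172H/+ tumors included the highest value and the p53R172H/- tumors the lowest, and all groups overlapped. The suffix _a_at marks a probe set that matches several transcripts of 1 gene, so a signal here may come from either of the starts shown above.

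The log2 fold changes of Cdkn2a, from the fit over probe sets, were -0.31 ± 0.38 (adjusted p 0.743) in p53R172H/- and 0.41 ± 0.38 (adjusted p 0.719) in p53R172H/+, each against p53-/-. Between p53R172H/- and p53R172H/+ the difference was -0.72 ± 0.38, with an unadjusted p of 0.0974 and an adjusted p of 1. It was the largest fold change between the 2 mutant groups among the 10 genes and also had the largest standard error. Leaving out single tumors took it from -0.98 (without p53R172H/+ tumor 3) to -0.45 (without p53R172H/+ tumor 2). In p53R172H/- against p53-/- it ran from -0.53 to -0.01, without tumors 1 and 2 of the p53-/- group in that order. The difference between p53R172H/+ and p53-/- ran from 0.14 without p53R172H/+ tumor 2 to 0.71 without p53-/- tumor 2.

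Cdkn2b, its neighbour on chromosome 4, was measured well above the floor. This inhibitor had 731, 599 and 630 signal units in the p53R172H/- tumors, 639, 834 and 686 in the p53R172H/+ tumors, and 774, 955 and 713 in the p53-/- tumors (1449152_at). The groups formed the same order as for Ccnd2, with means of 653 ± 69.1, 720 ± 102 and 814 ± 126 (SD, n = 3 each), but overlapped. Tumor 1 of the p53R172H/- group, at 731, was above tumor 3 of the p53-/- group, at 713. The log2 fold changes were -0.31 ± 0.14 (adjusted p 0.338, unadjusted p 0.0581) in p53R172H/- and -0.18 ± 0.14 (adjusted p 0.658) in p53R172H/+, each against p53-/-. Without p53-/- tumor 2 they were -0.19 and -0.05. Without p53R172H/+ tumor 2 the second was -0.29.

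Mtap, the methylthioadenosine phosphorylase gene that lies beside the Cdkn2 genes and is often lost with them in tumors, served as a neighbour. It had 1926, 890 and 1363 signal units in the p53R172H/- tumors, 2104, 1845 and 1455 in the p53R172H/+ tumors, and 1113, 1553 and 1318 in the p53-/- tumors. Every tumor had signal from Mtap and Cdkn2b well above the floor. The cells that gave this signal cannot be told apart in bulk samples, and loss of these genes was not tested. The log2 fold change of Mtap was 0.01 ± 0.26 in p53R172H/- and 0.44 ± 0.26 in p53R172H/+, each against p53-/-. Tumor 2 of the p53R172H/- group was the lowest of the 9 in Mtap, Cdkn2a and Cdkn2b alike.

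Cdkn1b, the gene of p27Kip1, varied widely within each genotype. It had 257.0, 511 and 442 signal units in the p53R172H/- tumors, 249, 382 and 386 in the p53R172H/+ tumors, and 349, 400.4 and 291 in the p53-/- tumors (1434045_at). The range over tumors was 1.04 on the log2 scale, and the p53R172H/- group alone spanned most of it. The log2 fold changes were 0.17 ± 0.27 in p53R172H/- and -0.05 ± 0.27 in p53R172H/+, each against p53-/-. Its other probe set, 1419497_at, was below the floor in 8 of 9 tumors.

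Muscle and hair genes ran in the order of Cdkn1b among the p53R172H/- tumors and not in the other groups. Tumors 1, 2 and 3 of that group had mean log2 signals of 6.69, 10.45 and 9.48 for the muscle markers and 7.66, 10.83 and 9.87 for the hair genes, the same order as Cdkn1b. The p53R172H/+ tumors had 7.42, 6.51 and 8.38 for the muscle markers and 8.79, 7.26 and 9.50 for the hair genes, with tumor 2 the lowest in both and second in Cdkn1b. The p53-/- tumors had 7.78, 7.74 and 8.31 and 9.55, 8.52 and 9.63, with tumor 2 the lowest in both and the highest in Cdkn1b. With the muscle markers as a covariate the Cdkn1b difference was -0.02 in p53R172H/- and 0.05 in p53R172H/+, each against p53-/- on the log2 scale. Without the covariate these Cdkn1b differences were 0.17 ± 0.27 and -0.05 ± 0.27, both smaller than their standard errors. With it, Ccnd2 was at -0.57 in p53R172H/- against p53-/- (adjusted p 0.214). The part of muscle or hair tissue in the Cdkn1b and Ccnd2 values was not tested.

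**Figure D3:**
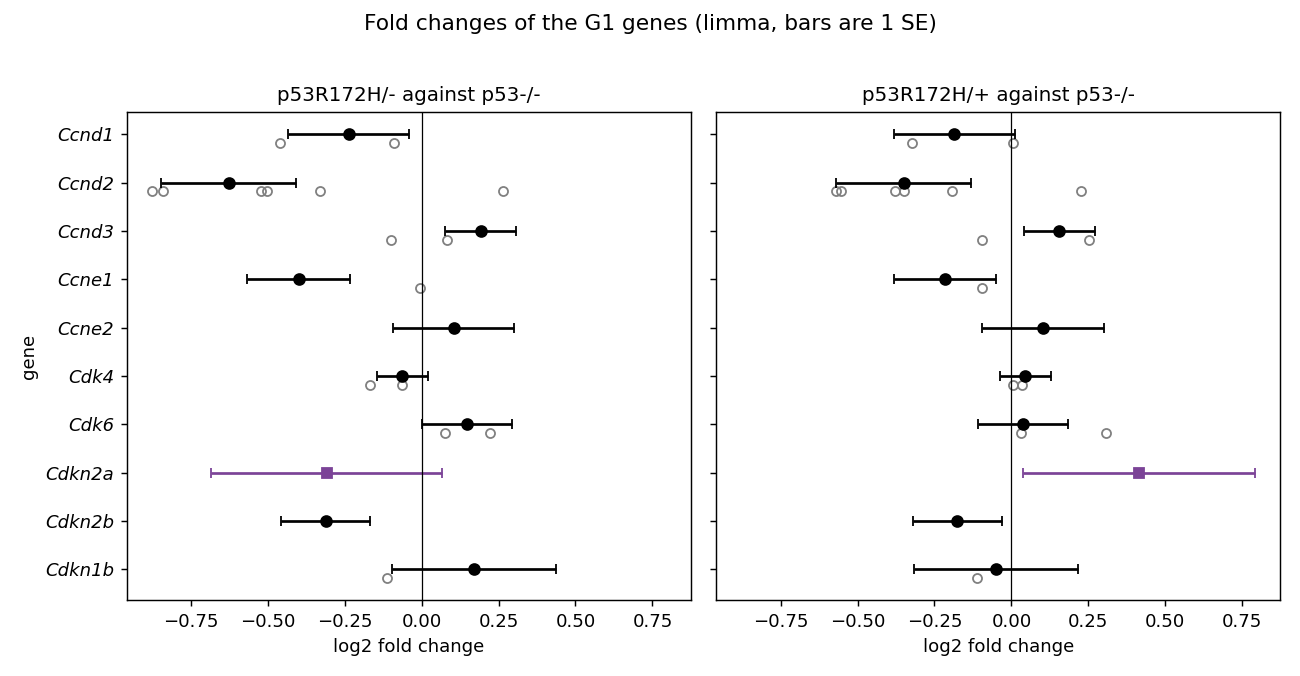
Log2 fold changes (horizontal axis) of the 10 genes with their standard errors as bars, for p53R172H/- against p53-/- at the left and p53R172H/+ against p53-/- at the right. Filled circles are the gene fit, squares are Cdkn2a from the fit over probe sets, and open circles are the other probe sets of each gene. Among the filled symbols Ccnd2 lies farthest from 0 at the left (-0.63 ± 0.22), Ccnd3 lies above 0 in both comparisons (0.19 and 0.16), and Cdkn2a has the widest bars (0.38).

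Counted together, 0 to 2 of the 9 G1 genes in the gene fit had an unadjusted limma p under 0.05 in each comparison. Counts over 9 genes are too small to tell them from the shares over all genes. In p53R172H/- against p53-/-, 2 of 9 were lower at an unadjusted p under 0.05 (Ccnd2 and Ccne1) and 0 were higher, against 9.16% of all genes lower and 6.44% higher. The same 2 of 9 had groups that did not overlap, against 13.8% of all genes lower. The median log2 fold change of the 9 was -0.06, against -0.03 over all genes tested.

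In p53R172H/+ against p53-/-, 0 of the 9 G1 genes had an unadjusted p under 0.05 (10.3% of all genes in either direction), and their median was -0.05 against -0.03 for all genes. Between p53R172H/- and p53R172H/+ tumors, 0 of 9 had an unadjusted p under 0.05 (4.96% of all genes). Of the 9, 1 (Cdk4) had groups that did not overlap, lower in p53R172H/-, as for 6.62% of all genes. For both mutant groups against p53-/-, 1 of 9 (Ccnd2) was lower at an unadjusted p under 0.05, against 9.09% of all genes. Their median was -0.01 there, against -0.03 over all genes.

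Single tumors stood out across several G1 genes. Tumor 2 of the p53-/- group was the highest of all 9 in Ccnd2, Ccne1 and Cdkn2b and the lowest in Ccnd3 and Ccne2. Tumor 2 of the p53R172H/- group was the lowest in Ccnd2, Ccne1, Cdkn2a and Cdkn2b and the highest in Ccnd3 and Cdkn1b. They belong to the p53R172H/- and p53-/- groups, and in Ccnd2, Ccne1, Cdkn2b and Ccnd3 they were at opposite ends of the 9. For Ccne1, leaving out p53-/- tumor 2 gave -0.27 and leaving out p53-/- tumor 1 gave -0.53 on the log2 scale in p53R172H/- against p53-/-, and for Ccnd2 the corresponding values were -0.37 and -0.83.

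**Figure D4:**
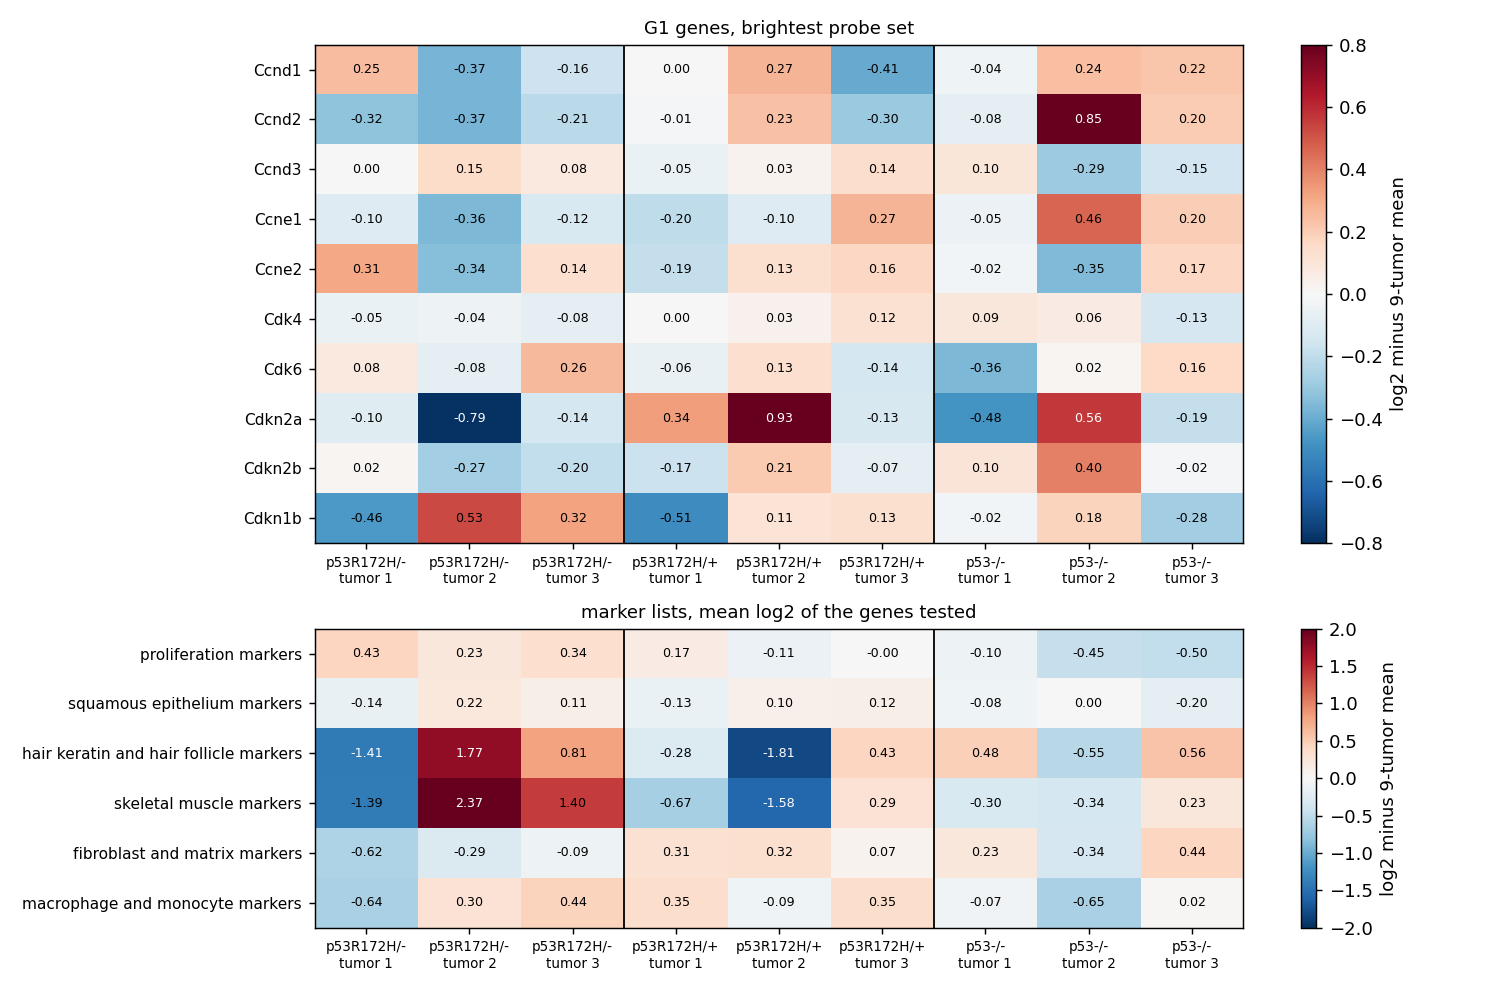
Log2 signal of each of the 10 genes (upper panel, colour) and mean log2 signal of 6 marker lists (lower panel) in each tumor, as the difference from the mean over the 9 tumors, with p53R172H/- tumors at the left, p53R172H/+ in the middle and p53-/- at the right. Tumor 2 of the p53-/- group stands out in Ccnd2, Ccne1, Cdkn2b and Ccnd3, and the muscle and hair lists vary more within the p53R172H/- group than between groups.

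Genes that act directly on or after the G1 genes were counted from listed pathways. Proliferation markers were higher on average in both mutant groups: 9 of 9 tested had an unadjusted p under 0.05 in p53R172H/- against p53-/- and 6 of 9 in p53R172H/+ against p53-/-, against 6.44% and 4.75% of all genes in that direction. Their mean log2 signal was 9.28 to 9.48 in the p53R172H/- tumors, 8.93 to 9.22 in the p53R172H/+ tumors and 8.55 to 8.94 in the p53-/- tumors. Of the G1 cyclins, Ccnd1, Ccnd2 and Ccne1 had their highest group mean in the p53-/- tumors, while Ccnd3 and Ccne2 had the same order of group means as the proliferation markers, with small differences. By p53R172H/- against p53-/- the median log2 fold change was 0.66 for the proliferation markers and -0.06 for the G1 genes.

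On the list of other cyclins, CDKs and inhibitors, 5 of 10 tested genes had a higher and 5 a lower mean in p53R172H/- than in p53-/- tumors, with a median log2 fold change of -0.02. Ccna2, cyclin A2 of S phase and G2, had 1005, 784 and 808 signal units in the p53R172H/- tumors, 790, 602 and 703 in the p53R172H/+ tumors, and 623, 432 and 489 in the p53-/- tumors. The p53R172H/- tumors were all above the p53-/- tumors, by 0.76 ± 0.16 on the log2 scale (adjusted p 0.214), as 9.11% of all genes were. The p53R172H/+ difference from p53-/- was 0.45 ± 0.16 (adjusted p 0.425). Cdk1, the mitotic kinase, averaged 1206 ± 157, 957 ± 109 and 846 ± 211 signal units in p53R172H/-, p53R172H/+ and p53-/- tumors (SD, n = 3 each). These were the 2 of 10 genes that were higher at an unadjusted p under 0.05 in p53R172H/- against p53-/- (6.44% of all genes), and 0 were lower.

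Cdk7, the kinase that activates other CDKs, was highest in the p53R172H/+ tumors. It had 527, 455 and 505 signal units in the p53R172H/- tumors, 617, 606 and 586 in the p53R172H/+ tumors, and 448, 512 and 464 in the p53-/- tumors. The p53R172H/+ tumors were above all p53-/- tumors (as for 7.08% of all genes) and above all p53R172H/- tumors (as for 6.62%). The share of genes above both groups was not counted. The log2 fold change of Cdk7 was 0.35 ± 0.09 in p53R172H/+ against p53-/- (adjusted p 0.359). In p53R172H/- against p53R172H/+ it was -0.29 ± 0.09 (adjusted p 0.949). Of its 4 dimmer probe sets, 2 had the opposite sign in p53R172H/+ against p53-/-.

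Of 13 tested RB, E2F and DP genes, 9 had a higher and 4 a lower mean in p53R172H/- than in p53-/- tumors, with a median log2 fold change of 0.11, where 43.8% of all genes had a higher mean. Only E2f7, a repressor member of the E2F family, had an unadjusted p under 0.05 (higher in 6.44% of all genes). It had 162, 148 and 143 signal units in the p53R172H/- tumors, 129, 166 and 199.5 in the p53R172H/+ tumors, and 108, 69.2 and 112 in the p53-/- tumors. All 6 mutant tumors were above all p53-/- tumors, as for 3.34% of all genes tested, by 0.68 ± 0.21 in p53R172H/- (adjusted p 0.249) and 0.78 ± 0.21 in p53R172H/+ (adjusted p 0.359). Rb1 and E2f1, chosen after their values were seen, differed by -0.06 ± 0.18 and 0.03 ± 0.11 in p53R172H/- against p53-/-. The other E2f1 probe sets, which were dimmer, gave -0.25 and -0.23.

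E2F targets of S phase entry leaned upward in number but little in size. In p53R172H/- against p53-/-, 13 of 16 tested had a higher mean (43.8% of all genes did), and the median log2 fold change was 0.10. Of the 16, 1 had an unadjusted p under 0.05 (higher in 6.44% of all genes). That gene was Slbp, the histone mRNA binding protein, with 562, 570.0 and 575 signal units in the p53R172H/- tumors, 477, 497 and 459 in the p53R172H/+ tumors, and 520.5, 413 and 472 in the p53-/- tumors. The p53R172H/- tumors were above all 6 others, by 0.29 ± 0.10 over p53-/- (adjusted p 0.264). Of all genes, 9.11% were apart upward from p53-/- in the p53R172H/- tumors, and the share above both other groups was not counted. In p53R172H/+ against p53-/-, 0 of the 16 had an unadjusted p under 0.05 in either direction, and 10 had a higher mean (43.9% of all genes did).

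The genes for turnover of p27Kip1 and cyclin E showed 1 of 10 tested higher at an unadjusted p under 0.05 in each mutant group against p53-/-, near the 6.44% and 4.75% of all genes. Cks1b, which helps the SCF-Skp2 ligase bind p27Kip1, averaged 1664 ± 177, 1447 ± 76.2 and 1291 ± 239 signal units in p53R172H/-, p53R172H/+ and p53-/- tumors (SD, n = 3 each), with a log2 fold change of 0.38 ± 0.14 in p53R172H/- against p53-/- (adjusted p 0.277). Its other probe set gave 0.64. Skp1, a core subunit of the same ligase, had 3787, 3723 and 3220 signal units in the p53R172H/+ tumors against 2217, 2418 and 3012 in the p53-/- tumors. These groups did not overlap (7.08% of all genes were apart upward), at 0.50 ± 0.12 (adjusted p 0.359), while the other Skp1 probe set gave 0.21.

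Among 18 tested regulators of the Cdkn2 genes, 4 were higher and 1 lower at an unadjusted p under 0.05 in p53R172H/- against p53-/- (6.44% and 9.16% of all genes), with a median log2 fold change of 0.11. Ezh2 and Suz12, subunits of the Polycomb complex that silences Cdkn2a in dividing cells, averaged 355 ± 24.8 and 582 ± 35.2 signal units in the p53R172H/- tumors, 317 ± 34.2 and 517 ± 87.0 in the p53R172H/+ tumors, and 274 ± 24.5 and 446 ± 37.4 in the p53-/- tumors (SD, n = 3 each). Kdm6b, a demethylase that removes the mark this complex sets, had 496, 446 and 495 signal units in the p53R172H/- tumors, 471, 531 and 692 in the p53R172H/+ tumors, and 714, 820.3 and 556 in the p53-/- tumors. For these 3 genes the p53R172H/- tumors did not overlap the p53-/- tumors, at 0.38 ± 0.12 for Ezh2, 0.39 ± 0.13 for Suz12 and -0.53 ± 0.17 for Kdm6b (adjusted p 0.247, 0.263 and 0.258). Of the 18 regulators, 5 were apart upward and 3 downward in this comparison, against 9.11% and 13.8% of all genes. The other Kdm6b probe sets, which were dimmer, gave -0.25 and -0.17 in it.

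The remaining regulators with an unadjusted p under 0.05 were Id1, Dmtf1 and Phc2. Id1, which restrains Ets activation of p16Ink4a, had 3273, 1759 and 1814 signal units in the p53R172H/- tumors, 2695, 2251 and 1627 in the p53R172H/+ tumors, and 1198, 1445 and 1541 in the p53-/- tumors. All 6 mutant tumors were above the p53-/- tumors (3.34% of all genes), at 0.66 ± 0.26 in p53R172H/- and 0.63 ± 0.26 in p53R172H/+ (adjusted p 0.286 and 0.460). Dmtf1, an activator of the p19Arf promoter, averaged 495 ± 50.6, 508 ± 30.4 and 403 ± 54.0 signal units in p53R172H/-, p53R172H/+ and p53-/- tumors, and its 2 dim probe sets had the opposite sign. Phc2, a Polycomb subunit, averaged 535 ± 5.69, 579.8 ± 51.2 and 475 ± 60.8 in the same groups (SD, n = 3 each). Its other probe set gave log2 fold changes of -0.03 in p53R172H/- and 0.15 in p53R172H/+, each against p53-/-.

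Of 13 tested senescence-associated genes, 4 were higher and 0 lower at an unadjusted p under 0.05 in p53R172H/- against p53-/-, and 2 were higher in p53R172H/+ against p53-/-. The shares of all genes higher were 6.44% and 4.75%. Hmgb2, a chromatin protein that senescent cells lose, had 1376, 1307 and 1481 signal units in the p53R172H/- tumors, 1556, 1157 and 1365 in the p53R172H/+ tumors, and 1052, 908 and 1113 in the p53-/- tumors. All 6 mutant tumors were above the p53-/- tumors (3.34% of all genes), at 0.44 ± 0.12 in p53R172H/- and 0.40 ± 0.12 in p53R172H/+ (adjusted p 0.227 and 0.380). The other Hmgb2 probe sets, which were dimmer, gave 0.26 and 0.06 in p53R172H/- against p53-/-. Hmga2, a chromatin protein that represses Cdkn2a in mouse stem cells, averaged 210 ± 64.6, 203 ± 46.3 and 126 ± 37.8 signal units in p53R172H/-, p53R172H/+ and p53-/- tumors (SD, n = 3 each). Both mutant groups overlapped the p53-/- group, and p53R172H/- against p53-/- was 0.73 ± 0.30 (adjusted p 0.302). Its dimmer probe sets gave 0.27, 0.45 and no difference in that comparison.

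Cxcl1, a chemokine secreted by senescent and by inflamed cells, had 1485, 584 and 769.9 signal units in the p53R172H/- tumors, 578, 1300.3 and 444 in the p53R172H/+ tumors, and 366, 537 and 218 in the p53-/- tumors. It was the largest difference on the senescence-associated list, at 1.32 ± 0.48 in p53R172H/- against p53-/- (adjusted p 0.271), and within every group the highest tumor was more than 2-fold above the lowest. Bhlhe40, a transcription factor induced in senescence, averaged 1529 ± 128, 1345 ± 147 and 1166 ± 111 in p53R172H/-, p53R172H/+ and p53-/- tumors (SD, n = 3 each). Hmgb2, Hmga2, Cxcl1 and Bhlhe40 do not share 1 place in senescence, and all had a higher mean in each mutant group than in the p53-/- group. Of these genes, only Hmgb2 had all p53R172H/+ tumors above all p53-/- tumors. Senescence itself was not tested. Macrophage and monocyte markers had mean log2 signals of 8.55 to 9.63, 9.10 to 9.54 and 8.54 to 9.21 in p53R172H/-, p53R172H/+ and p53-/- tumors. Their part in the values of the senescence-associated genes was not tested.

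The genes most like each G1 gene over the 9 tumors were listed by Pearson's r of log2 signals, as a description over points that share genotype and tissue content. Ccnd2 was most like Zfp469 (0.96) and Reep6 (0.94), Ccne1 most like Chpf (0.97) and Pwwp2b (0.97), and Cdkn2b most like Pgd (0.96) and Ypel1 (0.96). Ccnd3 ran with Sh3bp2 (0.96) and Dlg2 (0.95), and Cdkn1b with Hoxc5 (0.96) and Clec18a (0.95). For Ccnd1 the nearest were Ttl and Dync1i2 (both 0.92), for Ccne2 Ints3 (0.93) and Dsp (0.92), for Cdk4 Sncb and Vwa8 (both 0.90), and for Cdk6 Slc8b1 (0.90) and Rtn4 (0.89). Each was the highest among 12167 genes, where high values of r over 9 points are common.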

How the data were processed

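Biotin-labelled cRNA from total RNA of 9 mouse oral tumors was measured on Affymetrix arrays, per the labels' protocols. Values in the deposited table are signal intensities on a linear scale, made by the authors with MAS5, per the submitters' processing notes. The sources used here give neither its version nor its scaling. Groups came from the sample titles. Of 45101 probe sets, 64 were controls, 34945 had 1 gene symbol in the platform annotation, 932 had several and 9160 had none, and the last 2 kinds were not tested. Through gene identifiers 34741 matched the mouse RefSeq table (GRCm38.p6), which altered 0 symbols. Genotype labels were not checked by the level of the targeted gene, which is not reported.

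Intensities under the 20th percentile of all values (52.6) were set to that value before log2, and the arrays were not normalized again. A gene's value is that of its probe set with the highest mean log2 signal. Genes under the median of non-control probe sets (113) were left out, which left 12167 of 18193. All fold changes are from these floored values. limma 3.58.1 (R 4.3.3) was fitted with 1 mean per group on all 9 arrays, with lmFit and eBayes with a variance trend, and p-values were Benjamini-Hochberg adjusted with a threshold of 0.05. The same model was fitted to the 34945 probe sets. An exact permutation test of 3 against 3 tumors cannot go below 0.1 and was not used. The number of arrays limits the precision. The fit was tested on simulated data.

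The genes, the pathway and marker lists and the tests were chosen with earlier results of these data known. The text names all 10 genes, and gives some of their dimmer probe sets only as part of a range. From the pathway lists it names, per comparison, up to 4 genes of smallest unadjusted p under 0.05. Of the marker lists, including proliferation, it gives counts or levels and names only some of the genes that this rule would give, and for each G1 gene the 2 tested genes of highest r. Lists of endothelial, T and B cell and salivary gland markers were measured as well. Alternatives were other normalizations, floors, filters and probe set rules, no variance trend, fewer groups in the fit, muscle markers as a covariate, a block for the tumor number, and leaving out each tumor. Motifs were searched in the 250 bases before each RefSeq start.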

Additional observations from a re-analysis of the deposited data

How the results depend on the processing

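No G1 gene passed an adjusted p of 0.05 under any setting tried. Directions were followed for 28 fold changes of the G1 genes and not for every gene in every comparison. Several of those not followed were close to 0, so the counts of kept directions hold for the 28 alone. Of 274 values of these recomputed under other settings, 270 kept their direction, with a lowest adjusted p of 0.214. Of 252 recomputed with 1 tumor left out, 243 did, with a lowest adjusted p of 0.173. With the muscle markers as a covariate 19 genes passed in p53R172H/- against p53-/-, 0 of them G1 genes, and leaving out single tumors gave 0 to 1 gene for both mutant groups against p53-/-, the 1 being Dusp6 without p53R172H/+ tumor 3. The directions that turned were of small differences. Centring each array on its median gave 0.00571 for Cdk4 in p53R172H/- against p53-/- and 0.0159 for Cdkn1b in p53R172H/+ against p53-/-. The muscle covariate gave -0.0163 for Cdkn1b in p53R172H/- against p53-/- and 0.0530 in p53R172H/+ against p53-/-. Over single tumors left out, p53R172H/- against p53-/- ran from -0.0382 to 0.291 for Ccne2 and from -0.0296 to 0.466 for Cdkn1b. In the same way p53R172H/+ against p53-/- ran from -0.0400 to 0.220 for Ccne2, from -0.170 to 0.158 for Cdkn1b, from -0.110 to 0.148 for Cdk6 and from -0.0250 to 0.0860 for Cdk4. The cause of each was not tested. The unadjusted p of Ccne1 in p53R172H/- against p53-/- was 0.0569 with centred arrays, 0.0602 with the muscle covariate and 0.0544 with no filter on dim probe sets. Deviations of same-numbered tumors correlated from -0.50 to 0.24, and 4 of 9 pairs were over 0.1. With 3 tumors a group these values cannot decide whether the tumor number pairs the tumors. With the number as a replicate block Ccnd2 had -0.63 in p53R172H/- against p53-/- (adjusted p 0.256), and 0 genes passed. The mean over probe sets and the fit with no dim filter were not run for the 3 Cdkn2a differences, which come from an unfiltered fit on its 1 probe set. The signal of Cdkn2a was dim, and its values varied with the tumor left out.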

Other observations

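Cells outside the tumor epithelium were also measured on these arrays. Endothelial markers (8 tested) had mean log2 signals of 7.65 to 8.04 in the p53R172H/- tumors, 7.87 to 8.10 in the p53R172H/+ tumors and 7.69 to 8.15 in the p53-/- tumors. Of 13 listed T and B cell markers 5 were bright enough to be tested, at 7.71 to 7.83, 7.71 to 7.86 and 7.75 to 7.89 in the same order of groups. Of 11 listed salivary gland markers 1 was tested, Aqp5, the water channel of secretory cells, at 9.53 to 10.42, 9.87 to 10.70 and 9.96 to 11.32. Aqp5 was lower on average in p53R172H/- than in p53-/- tumors, with a log2 fold change of -0.89 ± 0.37 and overlapping groups.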
